A study of Homo sapiens with 10 samples.

Results

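The response of SKBR3 cells to calcitriol was followed in the presence of their mutant p53, in cells that had received the control siRNA against LacZ (LacZi), a bacterial gene. SKBR3 is an established human breast carcinoma line with HER2 amplification. The comparison used the 5 LacZi arrays out of 10 in the series, chosen by their siRNA and treatment labels. Of these, 2 were untreated and labelled as biological replicates, and 1 each was taken 8, 20 and 50 h after addition of calcitriol (1alpha,25-dihydroxyvitamin D3, D3 here) at 100 nM. All cells carried the same mutant p53 and grew in RPMI-1640 with 10% charcoal-stripped serum, and all had been transfected. The series text places D3 at 48 h after transfection and the sample text at 24 h. The other 5 arrays had the same layout with siRNA against p53 (p53i) and were used only where the response was compared between the siRNAs. The labels do not say whether the D3 samples came from separate cultures, so the p-values reflect the scatter of these 5 samples, part of which may be technical. They give the untreated samples no harvest time either, and a change with D3 cannot be told apart from a change with days in culture.

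Calcitriol is the hormonal form of vitamin D. It binds the vitamin D receptor (VDR), a nuclear receptor that pairs with a retinoid X receptor (RXR) and binds DNA at paired half-sites near its target genes. CYP24A1, the enzyme that inactivates calcitriol, is the best known of these targets, and others carry calcium through epithelial cells or accompany growth arrest and differentiation.

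Transcripts were measured as MAS5 signals, which are array intensities scaled by the submitters so that the trimmed mean of every array was 200. Of 54675 probe sets, 41097 named a single gene, and 12038 genes remained after probe sets in the lower 50% of signals were left out. Median signals of all probe sets were 38.6 to 44.3. The LacZi arrays correlated at r = 0.970 to 0.983 over genes, and 288 genes (2.39%) differed at least 2-fold between the untreated duplicates. The line's labels were checked against markers. ERBB2, the HER2 receptor, had signals of 12690 to 14376, keratins KRT8, KRT18 and KRT19 and the adhesion molecule EPCAM were high, and CDH1 (E-cadherin) had only 2.80 to 20.5. Of 10 fibroblast markers, 2 passed the signal filter, and their summed signal was 470 to 543 in untreated and 505 to 654 in D3 samples. For 8 hepatocyte markers, none of which passed, it was 120 to 132 and 147 to 362, the highest at 50 h, where FGB alone had 221. Their part in the results was not tested. The 3' to 5' signal ratio of ACTB, which rises as RNA is degraded or incompletely copied, was 3.79 and 4.05 in untreated samples and 4.60 to 5.05 with D3. These ranges did not overlap (exact permutation test, two-sided, p = 0.2, the smallest p that 2 against 3 arrays allow). The same ratio of GAPDH was 1.09 and 1.135 untreated and 1.22 to 1.25 with D3, again without overlap (p = 0.2 by the same exact permutation test). Both ratios ran with D3, and a fit with the ACTB ratio as a covariate is given below the called genes.

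Over the 3 times together, 29 of 12038 genes (0.241%) passed an adjusted p of 0.05 in limma, a linear model fitted to all genes, with 26 higher (0.216%) and 3 lower (0.0249%) in D3-treated cells. Differences are given as log2(signal + 16), the D3 mean minus the untreated mean, with standard errors (SE). On that scale 18 of the 26 rises and 1 of the 3 falls reached 2-fold. Calls within the gene lists below stand against that 0.241% of all genes, a share at which a short list would seldom hold any. The median difference of all genes was -0.0008. At an unadjusted p under 0.05 there were 1771 genes (14.7%). For every one of the 29 genes, all D3 samples lay beyond both untreated samples, as they did for 16.5% of all genes on the high side and 15.4% on the low side. Another 30 probe sets of 18 of these genes passed the filter, and all 30 had a difference of the same sign. In 21 of the 30 all D3 samples lay beyond both untreated samples in that direction.

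The rise of CYP24A1, the 24-hydroxylase that degrades calcitriol, exceeded every other. Its signals were 34.9 and 40.0 in the untreated samples and 5489, 5039 and 6476 after 8, 20 and 50 h of D3. The level was thus near the filter before treatment and had reached its high level at the first time sampled, with little further change. The fitted rise was 106-fold (log2 difference 6.73, SE 0.13, limma adjusted p = 7.57e-09, n = 3 against 2). CYP24A1 was called under every alternative tried, with log2 differences of 6.63 to 6.81 when any array was left out.

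The receptor itself did not pass the test. VDR had signals of 762 and 753 untreated, then 761, 680 and 620 (log2 difference -0.14, adjusted p = 0.621), and the sign turned when probe sets of a gene were averaged (0.08). Its partner RXRA stood at 802 and 877, then 1017, 986 and 1022 (0.26, adjusted p = 0.268). CYP27B1, which makes calcitriol, was weakly expressed at 42.9 and 27.9, then 56.5, 50.0 and 62.0 (0.50, adjusted p = 0.466). In the list of 19 genes of vitamin D metabolism and its receptor complex, 13 were tested and 1, CYP24A1, passed.

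Both calcium channels that rose did so by the first time point. ITPR1, the inositol trisphosphate receptor that releases calcium from the endoplasmic reticulum, had signals of 71.4 and 62.8 untreated and 319, 342 and 310 with D3. All D3 values lay more than 4-fold above both untreated ones. The fitted rise was 4.09-fold (2.03, SE 0.16, adjusted p = 0.00196). TRPV6, the epithelial calcium entry channel of the plasma membrane, went from 176 and 122 to 691, 583 and 532, so that its highest value was at 8 h (3.78-fold, 1.92, SE 0.18, adjusted p = 0.00253). Among 19 tested genes of a calcium and phosphate transport list these were the only ones called over the 3 times (0.241% of all genes were), and 8 of the 19 (42.1%) had all D3 samples above both untreated samples, against 16.5% of all genes. ATP2B1, a plasma membrane calcium pump, had 430 and 511 untreated and 685, 708 and 849 with D3 (0.65, adjusted p = 0.102).

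**Figure D1:**
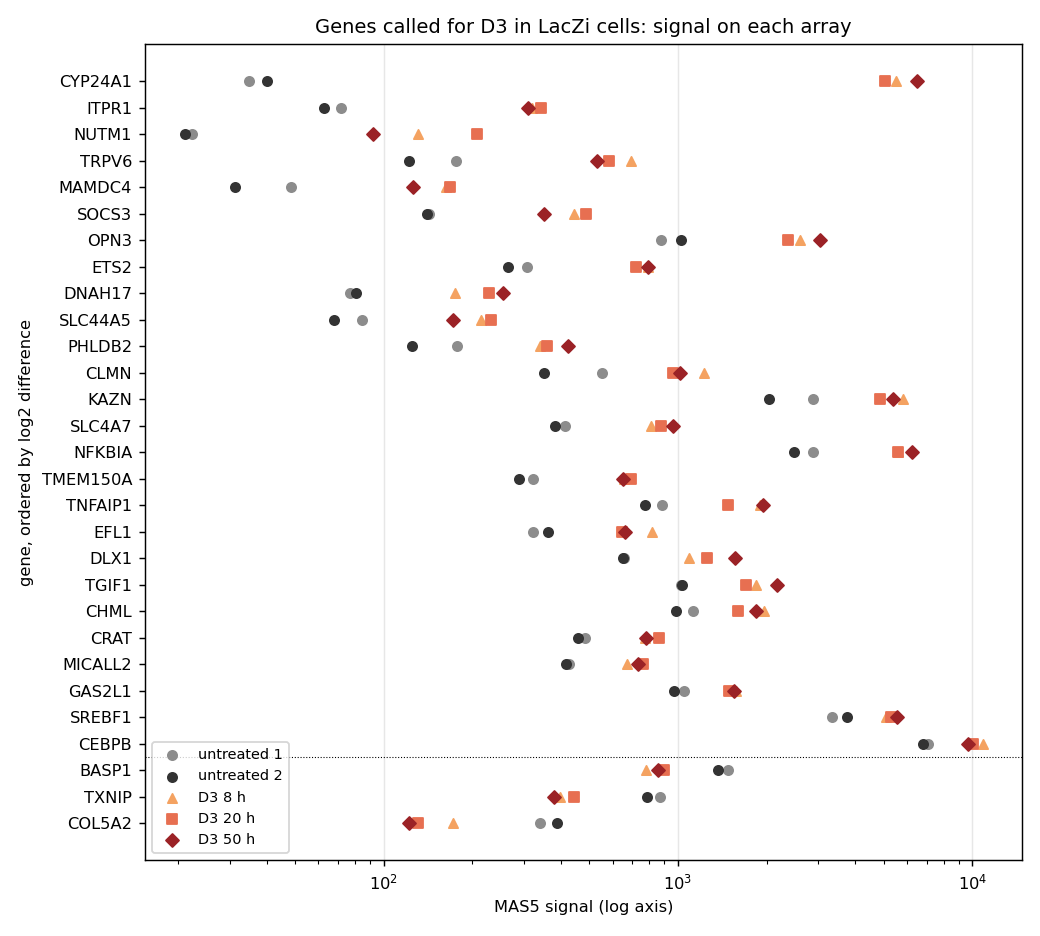
Signals of the 29 called genes on the 5 LacZi arrays (log axis), with grey circles for the untreated arrays and coloured symbols for D3 at 8, 20 and 50 h, and a dotted line between rises and falls. The D3 symbols stand apart from the untreated ones in each row, by 106-fold in the fit for CYP24A1 and by at most 4.09-fold in the fit for the others.

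Several called genes act in cytokine, NF-kB and ERK signalling. SOCS3, a feedback inhibitor of JAK-STAT signalling, had signals of 143 and 140 untreated and 444, 489 and 351.3 with D3 (2.79-fold, 1.48, SE 0.16, adjusted p = 0.00875). NFKBIA, which holds NF-kB in the cytoplasm, had 2884 and 2488, then 5584, 5585 and 6225 (2.15-fold, 1.11, SE 0.10, adjusted p = 0.00202). ETS2, a transcription factor activated through ERK, had 306 and 264, then 793, 720 and 791 (2.61-fold, 1.38, SE 0.12, adjusted p = 0.00202). For all 3 genes the D3 samples were alike and lay well above the untreated pair. NFKBIA was the only one of 17 tested NF-kB and cytokine genes to pass, and 3 of the 17 had all D3 samples above and 3 all below the untreated pair (17.6% each), near the 16.5% and 15.4% of all genes. ETS2 was the only one of 27 immediate early and ERK feedback genes called, with 10 of 27 above (37.0%, against 16.5% of all genes) and 4 below (14.8%, against 15.4%). MYC, the growth-promoting transcription factor, had 1454 and 2486 untreated, and its D3 values of 2070, 2143 and 2921 overlapped them.

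The NFKBIA promoter shows the kind of sequence window that was searched, and holds a match to the NF-kB consensus. It is written 5' to 3' on the gene's strand, which is the minus strand, from chr14:35404750-35404999 of RefSeq's GRCh38.p14 annotation, the 250 bases before the start, with the match in capitals, its first base 81 bases before the start:

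NFKBIA: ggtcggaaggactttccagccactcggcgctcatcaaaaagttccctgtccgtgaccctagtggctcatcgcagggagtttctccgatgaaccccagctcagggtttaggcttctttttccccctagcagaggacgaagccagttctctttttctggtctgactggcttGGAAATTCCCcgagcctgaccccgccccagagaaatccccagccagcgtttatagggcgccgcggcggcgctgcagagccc

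Of the 29 called genes, 23 had a RefSeq promoter entry, with 43 starts in all. CYP24A1, COL5A2, CRAT, CLMN, DNAH17 and GAS2L1 had no entry, so their promoters were not searched. The letters GGGANNNNCC, searched on both strands, were found before 12 of the 43 starts (27.9%) and before 22.6% of all 35116 starts. The STAT-type letters TTCNNNGAA were found before 1 of the 43 (2.33%, TMEM150A) and 6.57% of all. The DR3 motif, a direct repeat of 2 VDR half-sites with 3 bases between them, was found on either strand before 0 of the 43 and 0.202% of all. The motifs were chosen after the called genes were known, and a match in this short window is a description, not a binding site.

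Other called transcription factors and regulators moved less. DLX1, a homeobox factor, had signals of 657 and 650, then 1088, 1259 and 1566 (0.96, adjusted p = 0.0396). TGIF1, a homeobox repressor in TGF-beta signalling, had 1023 and 1029, then 1835, 1709 and 2176 (0.88, adjusted p = 0.0231). It was the only one called of 18 tested TGF-beta and BMP genes. CEBPB, a leucine zipper factor, went from 7070 and 6822 to 10844, 10085 and 9659, the smallest rise called (0.55, SE 0.08, adjusted p = 0.0379). SREBF1, the transcription factor of lipid synthesis, had 3328 and 3753, then 5099, 5288 and 5564 (0.59, adjusted p = 0.0396), and was the only one called of 20 genes of fatty acids and lipid storage. In all 4 the lowest D3 sample lay above the higher untreated one.

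A group of membrane, cytoskeletal and transport genes rose as well. OPN3, an opsin of the G protein-coupled receptor class, had signals of 875 and 1026 untreated and 2602, 2366 and 3038 with D3 (2.77-fold, 1.47, SE 0.12, adjusted p = 0.00202). SLC4A7, a sodium bicarbonate cotransporter, had 413 and 383, then 808, 877 and 963 (1.11, SE 0.12, adjusted p = 0.00715). It was the only one called of the 17 tested members of a list of sulfate and other solute carriers. KAZN, a cell junction protein, had 2885 and 2032, then 5802, 4878 and 5398 (1.14, adjusted p = 0.0159). CLMN, a membrane-anchored actin-binding protein, had 554 and 350, then 1222, 961 and 1015 (1.24, adjusted p = 0.0396). On the log2 scale the untreated duplicates of KAZN and CLMN lay farther apart than their 3 D3 samples. PHLDB2, which links the cell cortex to microtubules, had 178 and 124, then 340, 359 and 424 (1.24, adjusted p = 0.0379). DNAH17, an axonemal dynein heavy chain, had 77.1 and 80.3, then 175, 228 and 254 (1.30, adjusted p = 0.0405). SLC44A5, of the choline transporter-like family, had 84.2 and 67.7, then 214, 232 and 172 (1.27, adjusted p = 0.0455).

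The remaining rises were of mixed function. NUTM1, known as a fusion partner in NUT carcinoma, had low untreated signals of 22.3 and 21.1 and reached 130, 207 and 91.9 (2.01, SE 0.32, adjusted p = 0.0466). Its untreated signals were under the filter of 37.1, so it passed the filter through its D3 samples. A second NUTM1 probe set, below the filter, went the other way, from 47.9 and 49.4 to 9.82, 25.7 and 15.6. MAMDC4, also weakly expressed, had 48.6 and 31.1, then 163, 168 and 126 (1.60, SE 0.24, adjusted p = 0.0396). Both had the widest errors of the called genes, and folds at such signals are uncertain. TMEM150A, a transmembrane protein, had 322 and 289, then 656, 691 and 652 (1.09, SE 0.12, adjusted p = 0.00721). TNFAIP1, an adaptor of a cullin ubiquitin ligase, had 882 and 775, then 1902, 1482 and 1951 (1.08, adjusted p = 0.0159). EFL1, a GTPase of large ribosomal subunit maturation, had 322 and 362, then 815, 643 and 659 (1.01, adjusted p = 0.0309). CRAT, the carnitine acetyltransferase, had 481 and 457, then 774, 861 and 776 (0.76, adjusted p = 0.0379). CHML, a Rab escort protein, MICALL2, an effector of Rab proteins, and GAS2L1, which links actin to microtubules, rose by 0.76, 0.75 and 0.61.

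In the other direction, 3 genes fell. COL5A2, a chain of fibrillar collagen V, had signals of 341 and 389 untreated and 172, 131 and 122 with D3 (-1.28, SE 0.18, adjusted p = 0.0336). It was the only one called of 24 tested adhesion and matrix genes. TXNIP, which binds thioredoxin and restrains glucose uptake, had 870 and 787, then 397, 444 and 381 (-0.998, SE 0.12, adjusted p = 0.0159), and was the only one called of 17 NRF2 and redox genes. BASP1, a membrane-bound signalling protein and transcriptional corepressor, had 1476 and 1365, then 781, 893 and 855 (-0.74, SE 0.10, adjusted p = 0.0336). All 3 were already lower at 8 h. The next smallest p among lower genes did not pass the test. LMNB1, a nuclear lamin, had 525 and 400 untreated and 250, 234 and 242 with D3, and VTCN1, an inhibitory ligand of T cells, 1724 and 1475, then 1017, 726 and 910 (adjusted p = 0.0714 for each). VTCN1 passed without the 8 h sample (-0.96) and with 4 group means (adjusted p = 0.0251).

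How firmly a call held depended on the gene. With each array left out in turn, 9 of the 29 genes passed in all 5 fits: CYP24A1, ITPR1, TRPV6, SOCS3, OPN3, ETS2, SLC4A7, NFKBIA and TMEM150A. KAZN lost the call only without the 50 h sample (log2 difference 1.13), and TNFAIP1 without it (1.01) or without untreated replicate 2 (0.99). TGIF1 and TXNIP lost it without untreated replicate 1 (0.87 and -0.93), without replicate 2 (0.88 and -1.07) or without 50 h (0.78 and -0.95). For COL5A2, DNAH17, DLX1 and EFL1, only the fit without 8 h kept the call, with log2 differences in the others of -1.37 to -1.19, 1.19 to 1.32, 0.83 to 0.98 and 0.93 to 1.08. For PHLDB2 and CLMN only the fit without untreated replicate 1 kept it (1.00 to 1.30 and 0.92 to 1.31 in the others), and for SREBF1 only that without replicate 2 (0.50 to 0.62 in the others). The remaining 9 lost the call in each fit, with log2 differences of 1.74 to 2.26 for NUTM1, 1.37 to 1.83 for MAMDC4, 1.14 to 1.40 for SLC44A5, 0.67 to 0.85 for CHML, 0.71 to 0.79 for CRAT, 0.71 to 0.80 for MICALL2, 0.55 to 0.66 for GAS2L1, 0.51 to 0.59 for CEBPB and -0.80 to -0.69 for BASP1. No direction changed. The count of 29 became 13 without the 20 h sample, 9 without 50 h, 11 without the signal filter, 3 with probe sets averaged (CYP24A1, OPN3 and TMEM150A) and 2 with no trend of variance with intensity (CYP24A1 and ITPR1). With the ACTB ratio as a covariate, 78 genes passed, of which CYP24A1 (7.21) and OPN3 (2.02) were among the 29.

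The other 27 kept their sign under that covariate and lost the call, with adjusted p-values of 0.0648 to 0.91. The difference was 1.83 for ITPR1, 0.87 for TRPV6, 0.99 for SOCS3, 1.16 for ETS2, 1.11 for NFKBIA, 1.38 for SLC4A7 and 0.92 for TMEM150A. TRPV6 (0.87), CLMN (0.16), KAZN (0.44), MAMDC4 (0.63), CEBPB (0.25) and SLC44A5 (0.59) were left with under 0.5 of their difference without the covariate. COL5A2 (-1.77) and TXNIP (-1.21) lay farther from 0 with the covariate than without. The ratio did not overlap between untreated (3.79 and 4.05) and D3 samples (4.60 to 5.05). Among the D3 samples it fell with time, so the covariate ran with both D3 and time. TRPV6, CLMN, KAZN, MAMDC4, CEBPB and SLC44A5 differed more at the first D3 time than at the last, COL5A2 and TXNIP less. How much of a difference goes with RNA degradation cannot be read from this fit and was not tested.

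The called rises were mostly present by 8 h, which the fit itself favours, since it counts change between the D3 times as spread. Of the 26, 17 were at least 2-fold at 8 h, and in 24 the 8 h difference was 75% or more of that at 50 h. The 50 h value was the larger in 12 of 26. SOCS3 differed from the untreated mean by 1.55, 1.68 and 1.22 at the 3 times, TRPV6 by 2.12, 1.88 and 1.75, NFKBIA by 1.06, 1.06 and 1.21 and SLC4A7 by 0.99, 1.11 and 1.24. Genes at least 2-fold above both untreated samples numbered 33 in the 8 h sample (0.274%), 54 in the 20 h sample (0.449%) and 87 in the 50 h sample (0.723%). Below both by that margin were 59 (0.49%), 56 (0.465%) and 68 (0.565%). Each of these counts rests on 1 array, and the untreated duplicates alone were 2-fold apart for 288 genes. In limma fits of a single time, which have 1 residual degree of freedom and on simulated data made more false calls than their threshold allows, 8 genes passed at 8 h (0.0665%, 6 higher or 0.0498% and 2 lower or 0.0166%). At 20 h 9 passed, all higher (0.0748%), and at 50 h 45 (0.374%), of which 36 were higher (0.299%) and 9 lower (0.0748%).

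Another group of genes had signals ordered by time, and in the fit over the 3 times such an order counts as spread. None of those named next passed that fit. All passed a fit of 4 groups, in which each time had its own mean, with 64 genes called, but that fit too has 1 residual degree of freedom. SLC26A2, the sulfate transporter, had signals of 161 and 157 untreated, then 402, 900 and 1664, a log2 difference of 1.25, 2.39 and 3.26 at the 3 times. Over the times it missed the threshold (2.30, SE 0.44, adjusted p = 0.0783), and passed under median centring (adjusted p = 0.0413). In the fit of 4 groups its adjusted p was 0.000194. There it was 0.00427 for ERVW-1, 0.00582 for WLS, 0.019 for KLK6, 0.0021 for TM7SF2, 0.0222 for STEAP4 and 0.0378 for CYFIP2. Without the 8 h sample SLC26A2 (2.83), ERVW-1 (2.96), WLS (2.45) and TM7SF2 (2.04) passed the fit over the times. ERVW-1, the retroviral envelope gene syncytin-1, had 35.6 and 62.2, then 139, 316 and 720. WLS, the carrier that brings Wnt proteins to the cell surface, had 43.4 and 45.9, then 128, 223 and 444. KLK6, a kallikrein serine protease, had 24.4 and 35.6, then 64.2, 143 and 395. Both untreated KLK6 signals were under the filter of 37.1, so KLK6 passed the filter through its D3 samples. In each of these genes the order of signals was untreated, 8 h, 20 h, 50 h with no overlap. With the ACTB ratio as a covariate SLC26A2 (5.28), ERVW-1 (6.38), WLS (4.60) and KLK6 (5.80) passed. Among the D3 samples that ratio fell with time (5.05, 4.80 and 4.60 at 8, 20 and 50 h), so the covariate takes up an order in time. The fitted differences were larger than at any single time, and the fit is no separate support for genes chosen by that order.

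Other metabolic genes and a falling gene followed the same order. TM7SF2, a sterol reductase of cholesterol synthesis, had 354 and 466 untreated, then 799, 1338 and 2221, and STEAP4, a metalloreductase, had 642 and 587, then 682, 1158 and 1813. CYFIP2, an actin regulator and p53 target, went the other way, from 753 and 670 to 583, 374 and 253. With the ACTB ratio as a covariate TM7SF2 (4.26) and CYFIP2 (-2.77) passed, and STEAP4 (2.81) did not. The limit given above for that covariate holds for these genes too. In a fit of the slope over log2 time within the D3 samples, 0 genes passed and 701 had an unadjusted p under 0.05. The smallest adjusted p was that of SLC26A2 (slope 0.76 per doubling of time, SE 0.07, adjusted p = 0.0576). Without untreated replicate 1 or 2, 38 and 52 genes passed, in fits left with 1 residual degree of freedom.

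**Figure D2:**
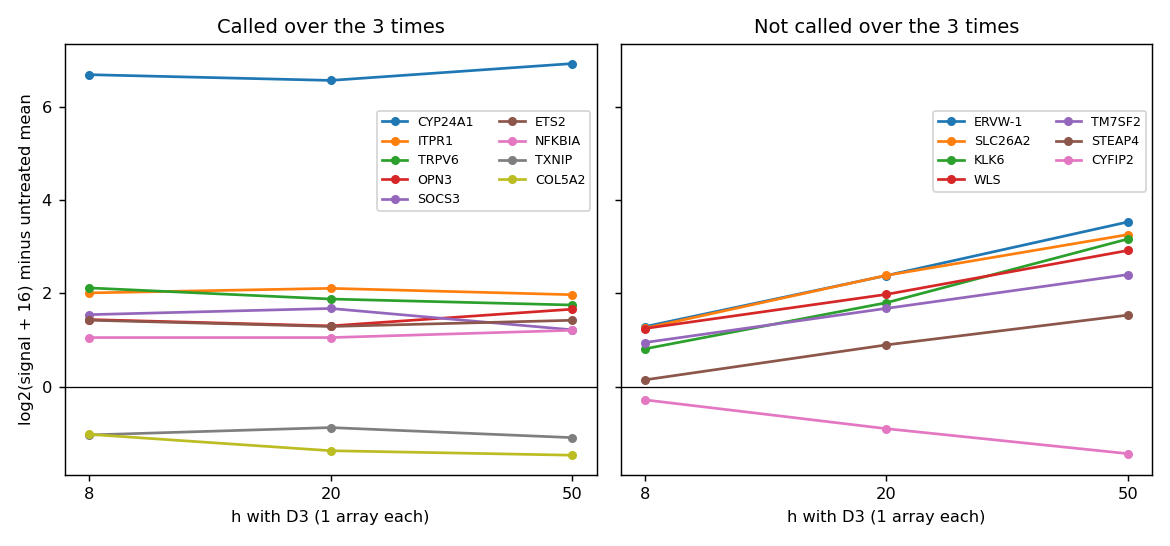
Log2 difference of the LacZi D3 samples from the untreated mean at 8, 20 and 50 h (evenly spaced), for called genes on one panel and for genes ordered by time on the other. Each point is 1 array, so no error bar is drawn. CYP24A1 stays between 6.56 and 6.93, whereas SLC26A2 goes from 1.25 to 3.26.

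Known VDR targets were set out as a list of 37 genes drawn from textbook knowledge. The list was made with earlier results of these data known, so its counts are a description, not a test. Of these, 24 were tested, and a gene expressed only with D3 could pass the signal filter through those samples. The called members were CYP24A1, TRPV6, EFL1 and CLMN, all higher. All D3 samples lay above both untreated samples in 17 of 24 (70.8%), against 16.5% of all genes, and below both in 2. The median difference was 0.86, and by time 0.70, 0.79 and 1.05, against -0.0008 for all genes over the times. SERPINB1, a protease inhibitor, had 67.3 and 33.2, then 169, 140 and 230 (1.58, adjusted p = 0.0714), and CDKN1A, the p21 inhibitor of cyclin-dependent kinases, had 191 and 255, then 340, 400 and 459 (0.80, adjusted p = 0.111). HILPDA, a lipid droplet protein, was on the low side with 2708 and 2116, then 1575, 1589 and 1711 (-0.56, adjusted p = 0.102).

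Genes of the cell cycle had mostly lower signals with D3, and none passed the test over the 3 times. Of 38 tested genes of G1/S and DNA replication, 0 were called, 27 had all D3 samples below both untreated samples (71.1%, against 15.4% of all genes) and 0 had all above. Of 40 genes of G2/M and mitosis, 23 lay below in this way (57.5%) and 0 above, and the difference was negative for all 40. Median differences were -0.33 and -0.40, and at 8, 20 and 50 h they were -0.21, -0.47 and -0.38 for G1/S and -0.15, -0.47 and -0.59 for G2/M. The G2/M count depended on the 8 h sample, without which 38 of 40 lay below, against 23.8% of all genes, and on untreated replicate 2, without which 36 did, against 30.3%. With the arrays centred on their medians 23 and 18 lay below, and none above.

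Single members show the size of these differences. CDT1, which licenses replication origins, had 760 and 404 untreated, then 329, 278 and 246 (-0.94, adjusted p = 0.143). Its untreated duplicates lay far apart, and the difference was -0.50 without replicate 1 and -1.38 without replicate 2, where it passed (adjusted p = 0.0474). RFC2, a subunit of the clamp loader, had 1163 and 1235, then 790, 759 and 615 (-0.73, adjusted p = 0.0714), and CDC45, of the replicative helicase, 536 and 455, then 383, 284 and 282 (-0.63, adjusted p = 0.149). MAD2L1, of the spindle checkpoint, had 1279 and 927, then 759, 647 and 593 (-0.70, adjusted p = 0.113), and CKS1B, which binds cyclin-dependent kinases, 2733 and 2396, then 1948, 1498 and 1356 (-0.69, adjusted p = 0.107). CKS1B passed without the 8 h sample (-0.84), with 4 group means (adjusted p = 0.0415) and with the ACTB ratio as a covariate (-1.67), RFC2 with 4 group means (adjusted p = 0.0403) and MAD2L1 with the covariate (-1.70). The ACTB ratio fell from 8 to 50 h of D3, as the signals of CKS1B and MAD2L1 did, so that covariate takes up part of their order in time. CDKN2B, the p15 kinase inhibitor, had 64.9 and 50.1, then 109, 161 and 194 (1.19, adjusted p = 0.109). Of 19 kinase inhibitors and cyclins, 0 passed, with 5 above and 5 below (26.3% each, against 16.5% and 15.4% of all genes).

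**Figure D3:**
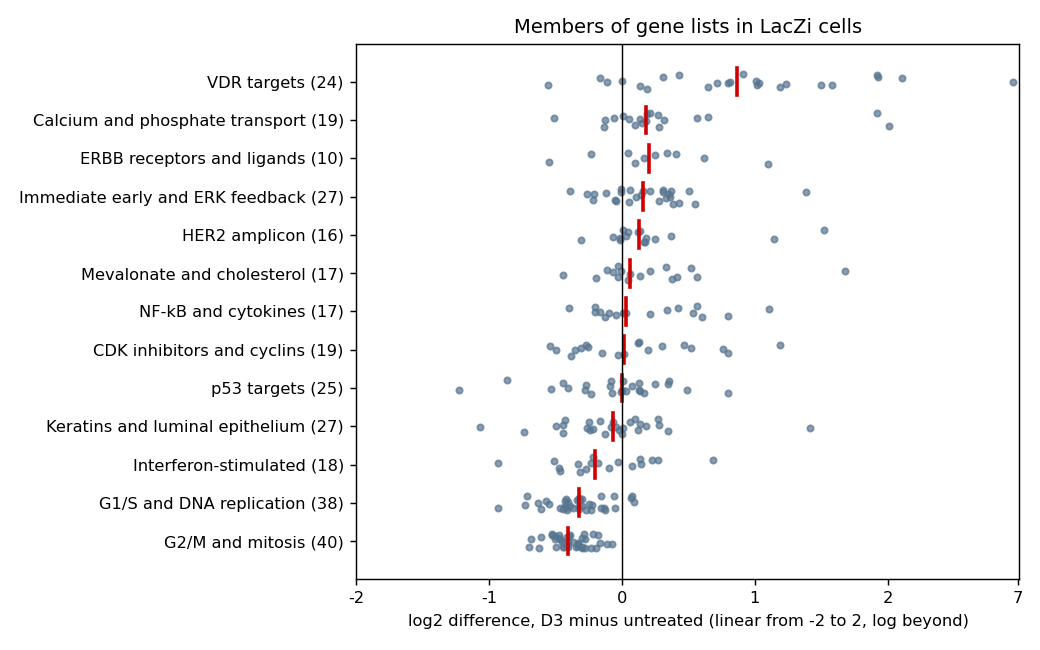
Log2 differences of every tested member of 13 of the gene lists, D3 over the 3 times minus untreated in LacZi cells (linear from -2 to 2, log beyond), with each point 1 gene, spread vertically at random within its row, the number tested in brackets, a bar at the median of the list and a line at the median of all genes. The G1/S and G2/M lists lie almost wholly below 0 (medians -0.33 and -0.40), and the VDR target list mostly above (median 0.86).

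No gene of the HER2 axis passed the test. ERBB2 had 12690 and 14376 untreated and 13830, 13764 and 14113 with D3 (0.04, adjusted p = 0.858), and 0 of 16 tested genes of its amplicon passed. In the amplicon 5 of 16 genes had all D3 samples above both untreated samples (31.25%, against 16.5% of all genes) and 0 all below. Its largest difference was that of PNMT (1.52, adjusted p = 0.076). Of 10 ERBB receptors and ligands 0 passed, with 5 above (50%) and 1 below (10%, against 15.4%). EGFR, the related epidermal growth factor receptor, had 1779 and 1400, then 1003, 1143 and 1078 (-0.55, adjusted p = 0.113), and HBEGF, one of its ligands, 56.5 and 61.2, then 154, 97.6 and 196 (1.10, adjusted p = 0.14). Of 25 p53 targets 0 passed over the 3 times, with 3 above (12%, against 16.5% of all genes), 6 below (24%, against 15.4%) and a median of 0.00. CYFIP2 was called lower in the fit at 50 h (adjusted p = 0.015). MDM2, the ubiquitin ligase for p53, had 811 and 685, then 793, 673 and 648, which overlapped. No member was called over the 3 times, either, among the lists for apoptosis regulators (22 tested), keratins and luminal epithelium (27), kallikreins and proteases (18), the IGF axis (9), Wnt signalling (18), mevalonate and cholesterol (17), interferon-stimulated genes (18), the unfolded protein response (21), glycolysis and hypoxia (24) and S100 proteins and annexins (21). Their medians ran from -0.20 for interferon-stimulated genes to 0.17 for the IGF axis. With 0.241% of all genes called, 0 in lists this short says little about them. All D3 samples lay above both untreated samples in 44.4% of the IGF and 41.2% of the mevalonate genes, against 16.5% of all genes. In the other lists of this group that share was 3.7% to 27.8%. The share below was 11.1% to 22.2% over these lists, against 15.4%. In the fit at 50 h 1 gene each was called higher in the lists of kallikreins, Wnt signalling and mevalonate.

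The same D3 comparison in the p53i samples gave a difference of the same sign for 27 of the 29 genes. The ACTB ratio of the p53i samples was 4.39 and 8.72 untreated, then 4.77, 7.11 and 6.12 at 8, 20 and 50 h of D3. The 29 were chosen on the LacZi samples, so a smaller difference in p53i samples is partly built in and the values are a description. CYP24A1 had 6.73 in LacZi and 6.66 in p53i cells, and the 95% interval of the difference was -0.37 to 0.50. SOCS3 had 1.48 and 1.39, OPN3 1.47 and 1.27, NFKBIA 1.11 and 0.83, and BASP1 -0.74 and -0.70. Larger gaps were seen for ITPR1 (2.03 and 1.12), TRPV6 (1.92 and 1.19), ETS2 (1.38 and 0.80), SLC4A7 (1.11 and 0.30), CRAT (0.76 and -0.002), NUTM1 (2.01 and 0.15) and MAMDC4 (1.60 and -0.57). These 7 had an unadjusted interaction p under 0.05, as did 634 of all genes (5.27%). For ITPR1, TRPV6, ETS2, CRAT, NUTM1 and MAMDC4 both untreated p53i signals were above both untreated LacZi ones. The p53i signals of ITPR1 were 134 and 179 untreated, then 332, 335 and 407 with D3. Those of TRPV6 were 296 and 313, then 825, 749 and 584, and those of ETS2 408 and 436, then 750, 701 and 784. CRAT had p53i signals of 763 and 556, then 607, 843 and 537. NUTM1 had 55.8 and 40.0, then 89.6, 64.3 and 24.8, and MAMDC4 120 and 222, then 140, 187 and 40.2. SLC4A7 had p53i signals of 502 and 309, then 506, 456 and 508, so there the D3 signals were below those in LacZi samples.

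Across all genes 0 passed the interaction test in limma, and the smallest adjusted p was 0.9, so no response was shown to differ between the siRNAs. The widths of the intervals show what the arrays could resolve. They are not adjusted for the number of genes tested, and the genes were picked by their LacZi response and unadjusted interaction p. That these intervals lie above 0 follows from that choice and is no separate support for a difference. For ITPR1 the LacZi response minus the p53i response was 0.91, with a 95% interval of 0.38 to 1.43, for TRPV6 0.73 with 0.17 to 1.29 and for SLC4A7 0.81 with 0.29 to 1.34. The interaction count changed when 1 array was left out, most without p53i untreated replicate 1. That fit kept 1 untreated p53i array, replicate 2, whose ACTB ratio of 8.72 was the highest of the 10 arrays.

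**Figure D4:**
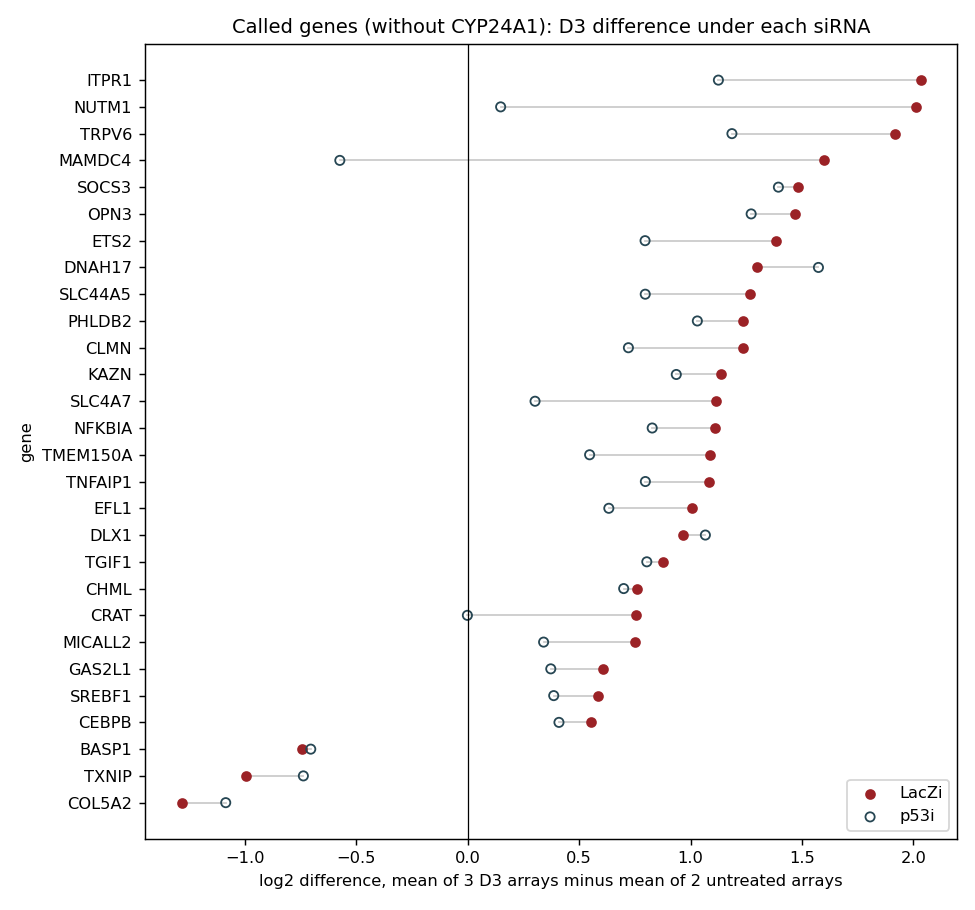
Log2 difference with D3 (mean of 3 D3 arrays minus mean of 2 untreated arrays) in LacZi cells (filled) and p53i cells (open) for the called genes other than CYP24A1, 1 gene to a row, with a grey line joining the pair. MAMDC4 shows the widest pair (1.60 and -0.57), whereas the points of BASP1 (-0.74 and -0.70) nearly meet, and no error bars are drawn.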

How the data were processed

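The authors deposited intensities of 54675 probe sets from 10 arrays, computed with MAS5 (version not given in the sources used here) per the submitters' processing notes. No detection calls or dates were used. Samples were grouped by their labels. Gene symbols came from the platform annotation, and probe sets with several symbols (1801) or none (11777) were left out. The p53 gene is not reported here. Signals were converted to log2(signal + 16), probe sets with a mean above a signal of 37.1, the upper 50% on the LacZi arrays, were kept, and the brightest of them stood for its gene.

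D3 samples were compared with untreated ones by two-sided tests in limma 3.58.1 under R 4.3.3 (eBayes with trend, 3 residual degrees of freedom), and p-values were adjusted over 12038 genes by Benjamini-Hochberg. The slope over log2 time used the same arrays, and the interaction with siRNA all 10. Fits at a single time have 1 residual degree of freedom and on simulated data called more unchanged genes than their threshold allows, so single times are described mainly by folds. The fits were tested on simulated data. The number of arrays limits the precision. Same-numbered untreated replicates of the siRNAs are only 2 pairs, and the D3 samples carry no replicate numbers.

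Genes were named by rule: the 12 largest rises and falls called (the 5 with the smallest p where fewer than 5 were called), the extremes at each time, up to 4 members of each list and a few fixed genes. The other called genes are named to account for all 29. The genes, lists and motifs were chosen with earlier results of these data known. Alternatives covered normalization, offset, filter, probe-set choice, the variance trend, the model, the ACTB ratio and each array left out.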

Additional observations from a re-analysis of the deposited data

How the results depend on the processing

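The called genes kept their direction under each alternative in which they were tested (24 of 29 with the upper 25% of probe sets, all 29 in the others), while the number called did not hold. The count over the 3 times was 29, and 11 without the filter, 3 with probe sets averaged, 2 without the intensity trend, 17 in a siRNA-by-D3 model on all 10 arrays, 64 with 4 group means and 78 with the ACTB ratio as covariate (2 shared). It was 9 to 32 with 1 array left out, and 26 to 29 under quantile normalization, median centring and other offsets. Counts at 8, 20 and 50 h, 8, 9 and 45 in fits with 1 residual degree of freedom, became 48, 95 and 248 under median centring, 1, 1 and 2 without the filter, 2, 2 and 24 with probe sets averaged, 1, 1 and 1 without the trend and 2, 2 and 6 with 8 group means on all arrays. With no offset the 8 and 20 h counts were 5 and 2. Leaving 1 array out could not check these counts. An array of another D3 time enters neither the comparison nor its residual, and without an untreated array no such fit was possible. The slope count of 0 became 1 under median centring, 1 with an offset of 64, 3 for 50 h minus 8 h and 0 to 52 with 1 array left out. The interaction count of 0 was 0 to 53 with 1 array left out and 0 under the replicate block, whose untreated pairs deviated together at r = 0.22. The cause of these shifts was not tested. Among uncalled genes some signs turned: with probe sets averaged ERBB2 was -0.0097, MDM2 0.0914 and VDR 0.0841, and QNG1 was 2.47 with the ACTB ratio. With 1 array left out, ERBB2 ran from -0.0483 to 0.1314, MDM2 from -0.203 to 0.0351, MYC from -0.0816 to 0.6861 and QNG1 from -1.1838 to 0.0017. Recounting the gene lists under other scalings and without single arrays was added after the data were seen. Low signals limit folds of weak genes such as NUTM1.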

Other observations

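Some genes stood apart at 8 h only. QNG1, which salvages queuine, had LacZi signals of 2340 and 2110 untreated, 446 at 8 h, 2371 at 20 h and 2086 at 50 h, so that 1 array alone was low. A second, weaker QNG1 probe set had 65.0 and 31.8 untreated, then 44.3, 82.1 and 51.6, so its 8 h signal lay between the untreated ones. For the first probe set the difference at 8 h was -2.28, and with a single array at that time it has no replicate check. Over the 3 times its difference was -0.76 (limma adjusted p = 0.582), and it passed with 4 group means (adjusted p = 0.029).

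On the high side at 8 h, PNMT, the enzyme that makes adrenaline, had 37.4 and 62.6 untreated and 244, 148 and 136 with D3. TMEM37, a regulatory subunit-like protein of calcium channels, had 9.02 and 41.5, then 158, 128 and 109. Both were highest at 8 h and lower at each later time, and neither passed the test over the 3 times (adjusted p = 0.076 and 0.072). PNMT passed with 4 group means (adjusted p = 0.0449), and TMEM37 under median centring (adjusted p = 0.0413) and without untreated replicate 2 (2.54). TMEM37 had 1 untreated signal under the filter of 37.1 and passed the filter through its D3 samples. At 50 h, KRTAP3-1, a keratin-associated protein of hair, had 415 after 21.4 and 34.8 untreated and 30.1 and 49.2 at the earlier D3 times. Both of its untreated signals were under that filter, which it too passed through its D3 samples.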
